A study of Mus musculus with 37 samples.

Results

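Genes that mark the endothelial cells of the lung were followed through lung RNA of 37 mice. The 34 genes were taken by symbol from a list of 34, all of them present among the 24421 symbols of the count table. They comprise 22 pan-endothelial genes, 4 genes of general capillary cells, 4 genes of aerocytes and 4 genes of larger vessels. All 34 had counts in all 37 libraries, from 32 (Tal1) to 26788 (Calcrl), and all 34 passed the filter on low counts that left 16977 genes for testing.

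Each library came from the lung of 1 C57BL/6 mouse. Mock mice (n = 7) received 0 Gy, silicon mice (n = 7) 0.75 Gy of 300 MeV/u Si ions, GCR mice (n = 7) 0.75 Gy of a 5-ion simulation of galactic cosmic radiation, and gamma mice (n = 5) 0.75 Gy of 137-Cs gamma rays. Mock + NR (n = 5) and silicon + NR mice (n = 6) were given nicotinamide riboside (NR), a precursor of NAD, at 12 mM in their drinking water, starting before exposure, and were otherwise treated as the mock and silicon mice. Males and females by label were 5 and 2 in mock, 3 and 4 in silicon and 3 and 4 in GCR. They were 3 and 2 in gamma, 4 and 1 in mock + NR and 4 and 2 in silicon + NR. The age of the mice and the time from exposure to dissection are not stated in the labels. Every p-value measures the spread between the libraries of these mice, in which differences between mice and in sample content cannot be told apart.

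Endothelial cells line all blood vessels, and in the alveoli they form the thin sheet through which gas is exchanged. Alveolar capillaries hold intermingled general capillary cells, which act as progenitors and meet blood cells, and aerocytes, large cells spread over the gas-exchange surface. Their shared identity is kept by transcription factors of the ETS family, such as Erg and Fli1, and of the SoxF family, Sox7, Sox17 and Sox18, which bind near many endothelial genes.

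Start-site windows (250 bases before to 50 after the transcription start, RefSeq, GRCm38.p6) were found for 14 of the 34 genes, as 19 windows. They were searched on both strands for the ETS core motifs CAGGAAG and CCGGAAG and for the SOX core AACAAT, which do not overlap in the windows shown. CAGGAAG was present in 8 of the 19 windows, against 13.3% of all 32851 windows of that length. CCGGAAG was present in 1 of 19, against 8.86% of all windows, and AACAAT in 3 of 19, against 10.7%. The 4 windows with 2 matches each are printed 5′ to 3′ on the strand of the gene, as examples of windows that hold both kinds of core or the same core at 2 places. Capitals mark the matches, as CTTCCTG or ATTGTT where the motif lies on the other strand. A match is a description of the letters and does not show binding. The windows are chr2:26580833-26581132 (+) for Egfl7, which encodes a secreted vascular protein, chr3:137340828-137341127 (+) for Emcn, a sialomucin of the endothelial surface, chr2:84425217-84425516 (-) for Calcrl, the adrenomedullin receptor, and chr16:95459299-95459598 (-) for Erg.
Egfl7: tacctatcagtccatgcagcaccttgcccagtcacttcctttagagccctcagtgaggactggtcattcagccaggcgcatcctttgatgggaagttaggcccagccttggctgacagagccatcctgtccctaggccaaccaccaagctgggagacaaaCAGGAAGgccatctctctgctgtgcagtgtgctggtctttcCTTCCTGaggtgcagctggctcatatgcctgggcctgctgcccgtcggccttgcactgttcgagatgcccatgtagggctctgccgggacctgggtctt
Emcn: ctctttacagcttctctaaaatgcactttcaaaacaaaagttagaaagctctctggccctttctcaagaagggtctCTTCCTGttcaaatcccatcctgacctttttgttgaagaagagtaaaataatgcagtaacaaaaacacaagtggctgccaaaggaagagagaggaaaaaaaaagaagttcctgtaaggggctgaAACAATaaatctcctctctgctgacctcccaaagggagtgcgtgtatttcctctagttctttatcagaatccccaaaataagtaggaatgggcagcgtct
Calcrl: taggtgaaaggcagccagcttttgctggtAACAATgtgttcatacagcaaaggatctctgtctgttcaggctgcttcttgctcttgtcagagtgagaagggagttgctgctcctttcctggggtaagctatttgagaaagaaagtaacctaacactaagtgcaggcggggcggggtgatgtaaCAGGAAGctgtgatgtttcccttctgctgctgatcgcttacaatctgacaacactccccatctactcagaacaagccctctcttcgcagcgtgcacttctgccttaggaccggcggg
Erg: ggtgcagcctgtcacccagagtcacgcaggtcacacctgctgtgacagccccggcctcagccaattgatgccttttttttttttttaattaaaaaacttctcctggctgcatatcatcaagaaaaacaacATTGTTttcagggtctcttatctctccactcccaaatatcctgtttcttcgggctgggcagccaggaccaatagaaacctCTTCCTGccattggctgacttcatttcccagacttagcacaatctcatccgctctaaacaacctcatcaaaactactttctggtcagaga

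The libraries held lung RNA of differing content. Counts scaled to a library total of 1000000 (CPM) of Sftpc, the surfactant protein of alveolar type 2 cells, ran from 307 to 36039. Those of Scgb1a1, a club cell gene of the airways, ran from 25010 to 301070, and those of Pecam1 from 30.9 to 357. Total counts per library ran from 9485197 to 66381526, with a median of 28476462. Several libraries carried RNA of other tissues or of ribosomes. There were 13 with Acta1, a skeletal muscle actin, over 1000 CPM (4 mock, 2 mock + NR, 5 silicon and 2 silicon + NR), 4 with the ribosomal transcript Rn45s over 100000 CPM (mock replicate 4 and GCR replicates 2, 5 and 6), 3 with Ccl19, a chemokine of lymphoid stroma, over 100 CPM (silicon replicates 3 and 6 and mock + NR replicate 4) and 2 with the atrial gene Nppa over 10000 CPM (gamma replicates 3 and 4). These are called muscle-rich, high-Rn45s, lymphoid-rich and heart-rich libraries. Gamma replicate 5, labelled female, goes against that label, since Xist was at 3.73 CPM and Ddx3y, a gene of the Y chromosome, at 87.6 CPM.

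Per kilobase of exon, Cldn5, a tight junction claudin, was the most abundant of the 34 genes, with a median over all libraries of 87.7 CPM per kb. It was followed by Plvap, which forms the diaphragms of capillary pores (75.2), Egfl7 (66.4) and Thbd, the thrombin receptor thrombomodulin (56.7). At the other end were Nos3, the endothelial nitric oxide synthase (3.41), Tal1, a haemato-endothelial transcription factor (1.304), and Cyyr1 (1.07). The spread between libraries was larger than most steps in this order: the highest library exceeded the lowest by 6.71-fold for Robo4, a guidance receptor of vessels, and by 46.0-fold for Car4, the membrane carbonic anhydrase of aerocytes.

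Most of that spread was shared by the genes of a library. The 34 genes together took 0.0690% to 0.745% of all counts, lowest in silicon + NR replicate 1 and mock + NR replicate 2 and highest in mock replicates 1 and 7. In mock libraries the share ran from 0.200% to 0.745% (median 0.429%), in silicon libraries from 0.0968% to 0.284% (0.197%) and in mock + NR libraries from 0.0720% to 0.318% (0.117%). It ran from 0.0690% to 0.391% (0.222%) in silicon + NR, from 0.140% to 0.402% (0.363%) in GCR and from 0.183% to 0.458% (0.340%) in gamma libraries. Ranges of all 6 groups overlapped. In bulk RNA, fewer endothelial cells and less of these RNAs per cell cannot be told apart. The group median was lowest in mock + NR for 29 of the 34 genes, and highest in mock for 16 and in gamma for 12.

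**Figure D1:**
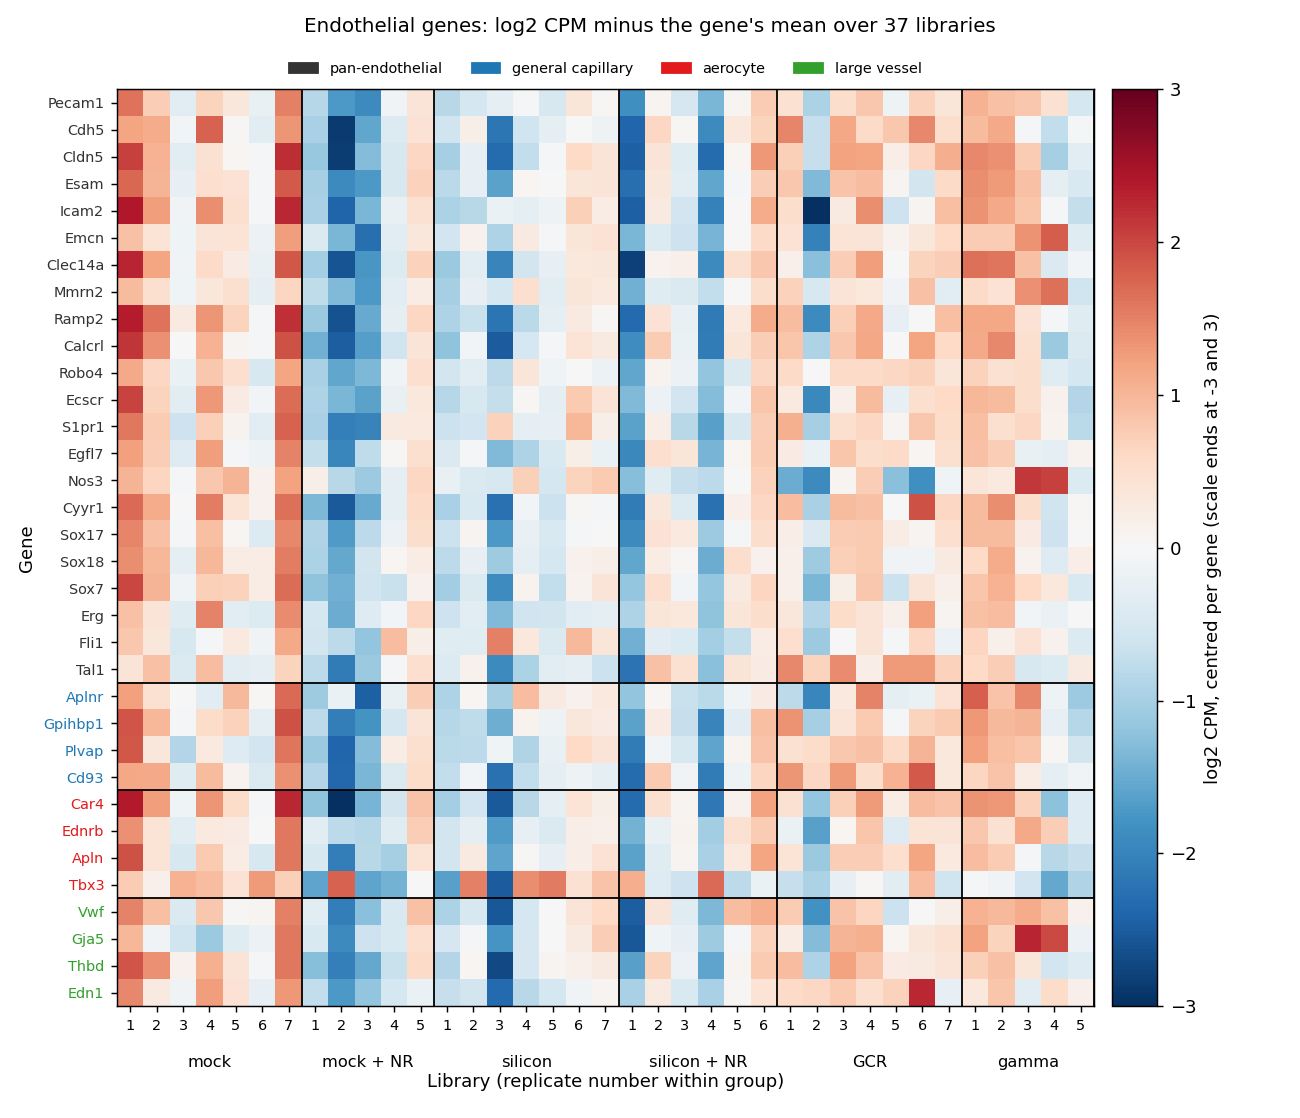
Log2 CPM of the 34 genes (rows, coloured by subset) in the 37 libraries (columns, by group and replicate number), each row centred on its own mean over all libraries. Columns are mostly of 1 colour from top to bottom: mock replicates 1 and 7 are high and mock + NR replicate 2, silicon + NR replicates 1 and 4 and silicon replicate 3 low in most rows, while Tbx3, Nos3, Fli1 and Gja5 depart from their columns.

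In silicon against mock, nearly all endothelial genes had fold changes below 0, but no single one passed the test. By edgeR's quasi-likelihood test, 32 of 34 had a log2 fold change below 0, with a median of -1.22, where the median of all 16977 genes tested was 0.07 and 40.45% were below 0. No gene of the genome passed an adjusted p of 0.05 (0% of genes, 0 of 34 here), and the smallest adjusted p among the 34 was 0.0897. At an unadjusted p under 0.05, 28 of 34 were lower and 0 higher, against 7.46% of all genes lower. DESeq2 called 18 of 34 lower, against 1.96% of all genes, and voom with quality weights called 0, against 0.00589% called in either direction.

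By p, the first 4 of the 34 were Sox7, Ramp2, Edn1 and Sox18. Sox7 (chr14:63943673-63950732, mm10) had 25.4 to 111 CPM in mock libraries (median 45.4) and 7.50 to 36.1 in silicon libraries (20.4). Its log2 fold change was -1.50 (SE 0.34, adjusted p = 0.0897, edgeR). Sox18 ran from 47.0 to 165 CPM (median 113) in mock and from 27.1 to 63.8 (46.8) in silicon libraries, with a log2 fold change of -1.24 (SE 0.30). The other SoxF factor, Sox17, was nearer 0 than the median member, with a log2 fold change of -1.12 (SE 0.34). For both Sox7 and Sox18 the groups overlapped, with the silicon medians below the lowest mock library.

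Ramp2, which turns Calcrl into the receptor of adrenomedullin, ran from 118 to 626 CPM (median 307) in mock and from 26.6 to 148 (76.8) in silicon libraries, and 5 of 7 silicon libraries lay below every mock library. Its log2 fold change of -2.10 (SE 0.48) was the largest of the 34, and that of Calcrl was -1.60 (SE 0.48). Ramp2 shares 1103 bases, 33.4% of its annotated exon sequence, with Vps25, an endosomal sorting gene, whose log2 fold change was -0.02 (adjusted p = 0.969). Edn1, the vasoconstrictor endothelin of larger vessels, ran from 17.5 to 56.3 CPM (median 28.0) in mock and from 4.12 to 22.2 (14.1) in silicon libraries, with a log2 fold change of -1.47 (SE 0.36). Among the pan-endothelial junction, adhesion and surface genes the log2 fold changes ran from -1.70 (SE 0.49) for Icam2, a leukocyte adhesion ligand, to -0.59 (SE 0.31) for Mmrn2, a matrix protein of vessels. Pecam1, the platelet endothelial adhesion molecule, lay between, with 91.7 to 357 CPM (median 185) in mock, 65.3 to 148 (94.6) in silicon libraries and a log2 fold change of -1.10 (SE 0.33).

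The subsets had similar medians in silicon against mock. The median log2 fold change was -1.22 for the 22 pan-endothelial genes, -1.11 for the 4 general capillary genes, -1.06 for the 4 aerocyte genes and -1.34 for the 4 large vessel genes. At an unadjusted p under 0.05, 19 of 22, 3 of 4, 3 of 4 and 3 of 4 were lower. In the aerocyte set, Car4 ran from 47.1 to 268 CPM (median 123) in mock and from 9.05 to 68.7 (34.7) in silicon libraries, with a log2 fold change of -2.04 (SE 0.52). Ednrb, an endothelin receptor, was at -1.11 (SE 0.29) and Apln, the ligand apelin, at -1.02 (SE 0.40). Tbx3, a T-box transcription factor in the same set, was at 0.01. Among general capillary genes, Gpihbp1, which holds lipoprotein lipase on the capillary wall, was at -1.38 (SE 0.42), Cd93, a surface lectin, at -1.28 (SE 0.43), Plvap at -0.93 (SE 0.41) and Aplnr, the apelin receptor, at -0.76 (SE 0.39).

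Whether the silicon calls passed depended on which libraries were kept. Without mock replicate 6, 17 of 34 were called lower (1.68% of all genes), and without mock replicate 3, 8 of 34 (0.950%). Both are muscle-rich and have the lowest shares of endothelial counts among mock libraries. Without the 13 muscle-rich libraries, which leaves 2 silicon and 3 mock mice, 24 of 34 were called lower (3.73% of all genes): 15 of 22 pan-endothelial, 3 of 4 general capillary, 4 of 4 aerocyte and 2 of 4 large vessel genes, with a median log2 fold change of -2.31. The 2 silicon libraries kept are replicates 1 and 3, of which replicate 3 is lymphoid-rich. They held 0.0968% to 0.127% of their counts in the 34 genes and the 5 silicon libraries left out 0.178% to 0.284%. The 3 mock libraries kept held 0.445% to 0.745% and the 4 left out 0.200% to 0.429%. No gene of the lists for other cell types was called by edgeR in this comparison. The median log2 fold change was -0.80 over 14 alveolar type 1 genes. Of these, 8 were lower at an unadjusted p under 0.05, against 7.46% of all genes. The median was -0.69 over 11 alveolar type 2 genes, of which all 11 were below 0 but 0 at an unadjusted p under 0.05. It was 0.02 over 8 club cell and 0.36 over 10 ciliated cell genes. It was 2.21 over 10 B cell genes, 2.25 over 10 T cell genes and 3.79 over 4 genes of lymphoid stroma. In the B cell and T cell lists 9 of 10 each were higher at an unadjusted p under 0.05, against 919 of all 16977 genes. Summed CPM of the T cell genes had near-equal medians, 71.2 in silicon (25.6 to 1163) and 69.1 in mock libraries (30.8 to 103). For the B cell genes the medians were 304 (84.9 to 2515) and 113 (68.6 to 301). Silicon replicates 3 and 6 are lymphoid-rich, and their part in these fold changes was not tested. The summed CPM of 14 skeletal muscle genes had a median of 27079 in silicon (232 to 94539) and 12189 in mock libraries (47.9 to 53101). None of the 14 muscle genes was at 0 throughout a group, and the part of these lists in the result was not tested.

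In mock + NR against mock, with no irradiation in either group, all 34 genes had a log2 fold change below 0. The median was -1.32, against -0.01 over all genes tested. None passed edgeR's test (0 of 34, 0% of all genes, smallest adjusted p 0.102). At an unadjusted p under 0.05, 30 of 34 were lower, against 7.71% of all genes. DESeq2 called 21 of 34 lower (2.21% of all genes) and voom 15 (1.60%). Without the muscle-rich libraries (3 mice in each group), edgeR called 21 of 34 lower (2.35%), and without mock replicate 6 it called 14 (1.14%).

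Sox7 was again first by p: the 5 mock + NR libraries had 12.0, 10.1, 18.3, 17.3 and 30.2 CPM, against 25.4 to 111 (median 45.4) in mock libraries. Of the 5, only replicate 5 lay within the mock range, and the log2 fold change was -1.61 (SE 0.37, adjusted p = 0.102, edgeR). Ecscr, a cell surface protein of endothelium, had 12.97, 9.55, 8.08, 21.03 and 30.8 CPM, against 19.7 to 100.2 (median 39.4) in mock libraries, with a log2 fold change of -1.61 (SE 0.40). Ramp2 had 56.1, 19.9, 42.9, 99.9 and 188 CPM, with a log2 fold change of -2.06 (SE 0.53). Replicates 4 and 5 were the highest of the mock + NR group for Ecscr and Ramp2. Edn1 had 12.6, 6.30, 9.09, 14.5 and 18.1 CPM, with a log2 fold change of -1.50 (SE 0.39), and only replicate 5 overlapped the mock libraries. The smallest changes were those of Fli1 (-0.38, SE 0.32), Gja5, a connexin of arterial endothelium (-0.54, SE 0.42), and Tbx3 (-0.58, SE 0.60).

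The subsets again had like medians: -1.34 for pan-endothelial, -1.20 for general capillary, -1.07 for aerocyte and -1.31 for large vessel genes. At an unadjusted p under 0.05, 20 of 22, 4 of 4, 3 of 4 and 3 of 4 were lower. This comparison and the silicon one share the 7 mock libraries, so their likeness is not independent. Airway genes lay the other way: the summed CPM of 8 club cell genes ran from 123260 to 348670 (median 246620) in mock + NR and from 73158 to 184340 (131720) in mock libraries, and the median log2 fold change was 1.07 over 10 ciliated cell genes. Alveolar type 1 and type 2 genes had medians of -0.997 and -1.09, with 10 of 14 and 6 of 11 lower at an unadjusted p under 0.05. Other lists below 0 were alveolar macrophage (-1.45, 6 of 9), mesothelial (-1.41, 5 of 7) and fibroblast genes (-0.69, 5 of 10), against 7.71% of all genes. B cell, T cell and lymphoid stroma genes lay above 0, with medians of 0.82, 1.325 and 3.19. The part of these lists in the result was not tested.

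**Figure D2:**
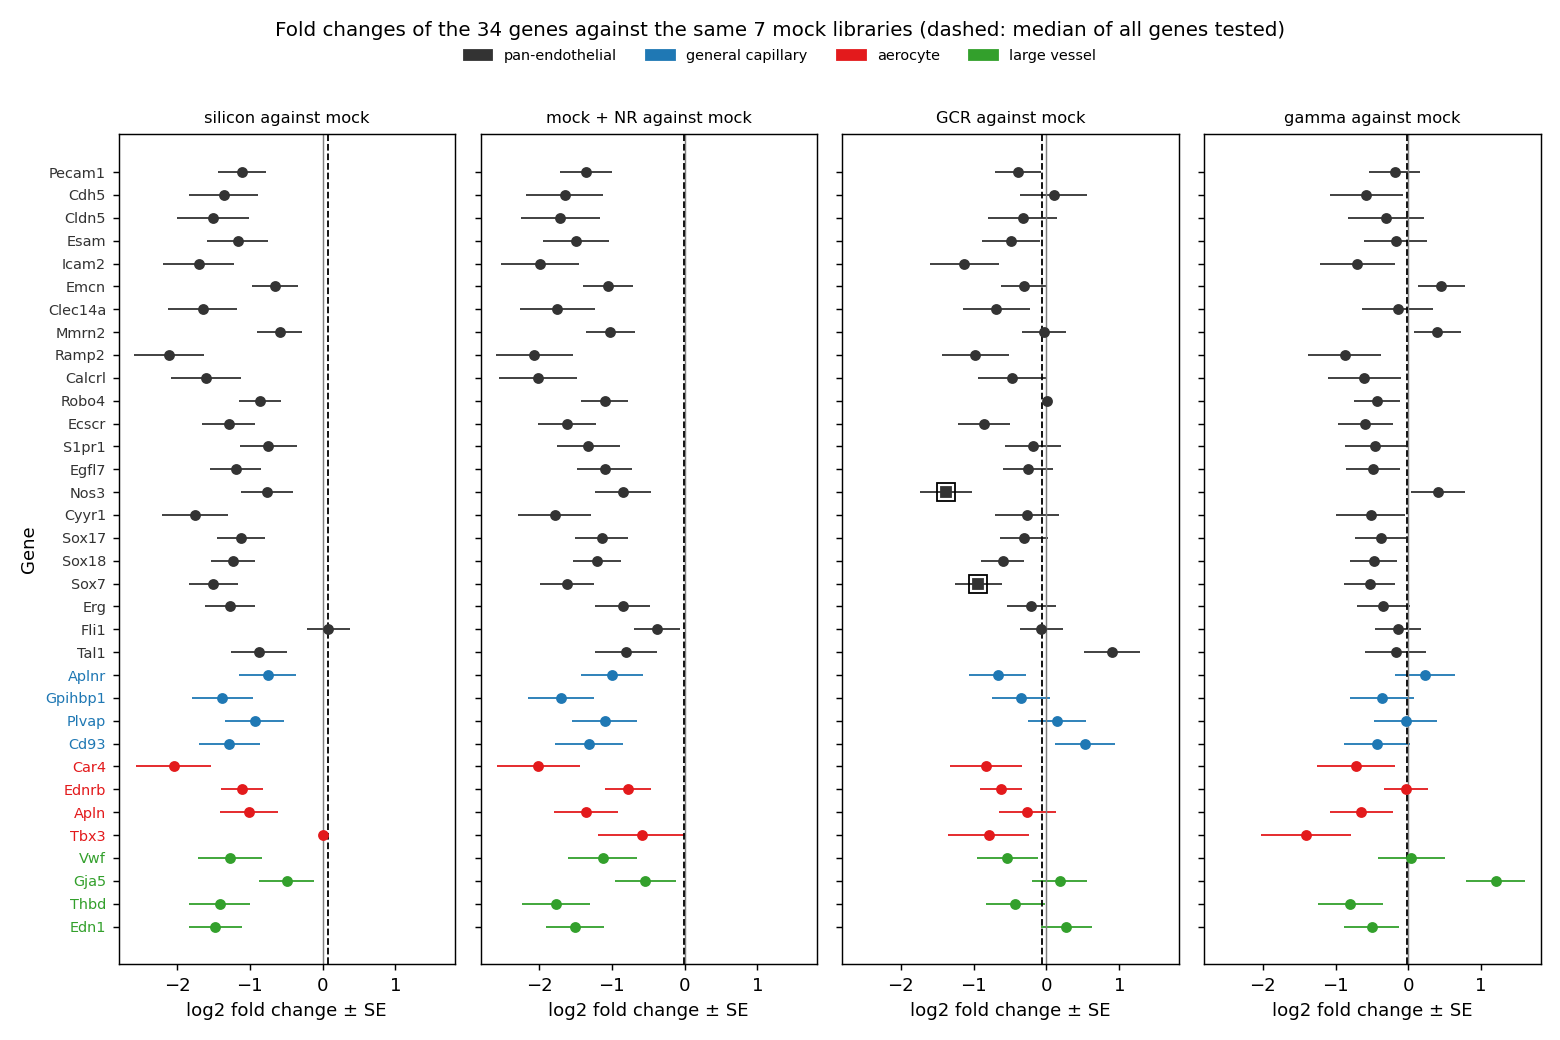
Log2 fold change (points) with its standard error (bars) for the 34 genes, coloured by subset, in 4 comparisons against the same 7 mock libraries; the dashed line is the median of all 16977 genes tested and black squares mark genes with an adjusted p under 0.05. In silicon and in mock + NR nearly all points lie left of 0 with medians of -1.22 and -1.32, whereas in GCR only Nos3 and Sox7 passed the test and in gamma none did.

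The silicon effect with NR was compared with that without it through the interaction term. No gene passed edgeR's test (0 of 34, 0% of all genes, smallest adjusted p 0.0828), yet 33 of 34 had an interaction above 0, with a median of 1.504 on the log2 scale against -0.08 over all genes. At an unadjusted p under 0.05, 25 of 34 were higher, against 5.02% of all genes. The largest were those of Ramp2 and Car4 (both 2.62, SE 0.70 and 0.75), Calcrl (2.38, SE 0.71), Cyyr1 (2.10, SE 0.67) and Clec14a, a C-type lectin that binds Mmrn2 (2.12, SE 0.69). Medians by subset were 1.495 for pan-endothelial, 1.40 for general capillary, 1.33 for aerocyte and 1.80 for large vessel genes. Since this term reuses the mock, silicon and mock + NR libraries of the 2 comparisons above, it is not independent of them.

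DESeq2 called 6 of 34 interactions higher (0.599% of all genes) and voom called 0. Sox7 passed when silicon replicate 2 was left out (1 of 34, 0.0649% of all genes) or when mock + NR replicate 3 was (1 of 34, 0.0234%). Without the muscle-rich libraries 27 of 34 were called higher (5.11%), with 2 silicon, 3 mock, 3 mock + NR and 4 silicon + NR mice left. Of silicon + NR, the 2 libraries left out had the lowest pan-endothelial levels of that group.

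In mice that drank NR, no member passed the test between silicon and mock. In silicon + NR against mock + NR, 30 of 34 were above 0 with a median log2 fold change of 0.33, and 0 of 34 passed edgeR's test (0% of all genes). None had an unadjusted p under 0.05, against 2.16% of all genes, and DESeq2 and voom called 0. Without the muscle-rich libraries the median was 0.88, with 0 called and 17 of 34 at an unadjusted p under 0.05, against 6.04% of all genes. Calcrl had the smallest p, with 63.0, 30.7, 54.5, 113 and 223 CPM in mock + NR and 39.8 to 287 (median 185) in silicon + NR libraries, a log2 fold change of 0.78 (SE 0.52, adjusted p = 1, edgeR). Next were Sox7 at 0.54 (SE 0.36), Fli1 at -0.47 (SE 0.33) and Thbd at 0.64 (SE 0.46). For Calcrl the range of the silicon + NR group covered that of all but 1 mock + NR library.

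In silicon + NR against silicon the median log2 fold change was 0.25, with 23 of 34 above 0. None of the 34 passed edgeR's test (0% of all genes), 1 had an unadjusted p under 0.05 (12.8% of all genes did), and DESeq2 called 0. Voom called 2, Erg higher and Tbx3 lower, where it called 24.8% of all genes. The gene with the unadjusted p under 0.05 was Fli1, at 19.1 to 74.5 CPM (median 32.6) in silicon and 9.56 to 30.6 (17.7) in silicon + NR libraries, with a log2 fold change of -0.93 (SE 0.31, adjusted p = 0.167, edgeR). Its highest silicon libraries, replicates 3 and 6, are the lymphoid-rich ones, and without the lymphoid-rich libraries the log2 fold change was -0.47. Erg was at 0.64 (SE 0.35), Tal1 at 0.58 (SE 0.40) and Edn1 at 0.48 (SE 0.36).

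GCR against mock was the one comparison in which members passed the test. Of 34 genes, 2 fell, Nos3 and Sox7, where 8.52% of all genes were called lower, and 0 rose, where 8.03% were called higher. The share of members that fell is thus below that of all genes. Over the 34 genes the median log2 fold change was -0.34, against -0.06 over all genes, with 27 below 0. Subset medians were -0.32 for pan-endothelial, -0.10 for general capillary, -0.71 for aerocyte and -0.12 for large vessel genes. Without mock replicate 1 the general capillary median was 0.20 and the large vessel median 0.08, and without mock replicate 7 the general capillary median was 0.04, so neither sign held. Over all 34 the median was -0.09 without the high-Rn45s libraries and -0.72 without the muscle-rich ones, and the summed CPM of the skeletal muscle genes ran from 61.4 to 180 in GCR libraries and from 47.9 to 53101 in mock libraries. The part of muscle RNA in these values was not tested.

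Nos3 (chr5:24364810-24384474, mm10) ran from 13.4 to 32.3 CPM in mock libraries (median 24.5). The 7 GCR libraries had 4.96, 3.73, 14.9, 23.3, 5.85, 3.90 and 12.8 CPM. Replicates 1, 2, 5 and 6 lay below every mock library, replicate 7 just below the lowest, and replicates 3 and 4 within the mock range. The log2 fold change was -1.38 (SE 0.36, adjusted p = 0.0144, edgeR). Replicates 2, 5 and 6 are the high-Rn45s libraries of this group. Without the high-Rn45s libraries the log2 fold change was -0.89 and 0 of 34 genes were called (0% of all genes), as was so without the muscle-rich libraries (0%), where Nos3 was at -1.43. On the opposite strand Nos3 shares 1040 exon bases (25.2%) with Gm15587, for which no value is given here, and 294 (7.12%) with Atg9b, an autophagy gene. Atg9b fell as well (log2 fold change -4.30, SE 1.24, adjusted p = 0.0222, edgeR). It ran from 0.329 to 12.8 CPM (median 0.625) in mock and from 0 to 0.366 (0.105) in GCR libraries. The library kit does not mark strand, so reads of the shared bases cannot be told apart.

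Sox7 had 30.7, 10.7, 31.01, 48.0, 17.7, 36.3 and 30.5 CPM in GCR libraries, with replicates 2 and 5 below every mock library and the other 5 inside the mock range. Its log2 fold change was -0.93 (SE 0.33, adjusted p = 0.0464, edgeR). With each of the 14 libraries left out in turn, Nos3 kept its call in 13 fits, with log2 fold changes of -1.26 to -1.62 and adjusted p values of 0.00457 to 0.0526, and lost it without GCR replicate 2, where 0 of 34 genes were called against 2.95% of all genes. Sox7 kept its call in 4 of 14 fits (without GCR replicates 1 or 4 or mock replicates 3 or 6) and lost it without GCR replicates 2, 3, 5, 6 or 7 or mock replicates 1, 2, 4, 5 or 7, with adjusted p values of 0.0384 to 0.127. Tal1 ran from 3.69 to 9.49 CPM (median 6.56) in mock and from 5.71 to 13.7 (12.1) in GCR libraries, a log2 fold change of 0.90 (SE 0.39, adjusted p = 0.0963, edgeR), and passed only without mock replicate 4 (adjusted p = 0.0481, over a range of 0.0481 to 0.195).

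In gamma against mock no endothelial gene passed the test. The median log2 fold change was -0.41, with 28 of 34 below 0, against -0.01 over all genes. None of the 34 was called (0.0295% of all genes were), and DESeq2 and voom called 0. At an unadjusted p under 0.05 Gja5 was higher (1 of 34, against 4.85% of all genes) and Tbx3 lower (1 of 34, against 5.17%). Without the muscle-rich libraries, 4 of which are mock and none gamma, the median was -0.82, with 0 called and 17 of 34 at an unadjusted p under 0.05, against 8.94% of all genes. Without gamma replicate 5, whose sex genes go against its label, 0 were called and the median was -0.27. With voom, which gives libraries unequal weights, the median was 0.05.

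Gja5 (chr3:96904693-97077416, mm10) had 46.6, 32.1, 98.7, 80.6 and 17.9 CPM in gamma libraries and 9.38 to 60.8 (median 18.0) in mock libraries, a log2 fold change of 1.20 (SE 0.41, adjusted p = 0.278, edgeR). Replicates 3 and 4, the heart-rich libraries, were the only ones above every mock library, and without them the log2 fold change was 0.46. Nos3 had 17.9, 17.1, 61.4, 57.9 and 10.5 CPM in gamma libraries and Emcn 46.3, 46.5, 69.8, 95.8 and 21.1, again highest in replicates 3 and 4. Without these libraries the log2 fold change of Nos3 went from 0.41 to -0.67 and that of Emcn from 0.45 to -0.04. The summed CPM of 9 cardiac muscle genes, none at 0 throughout a group, reached 54336 in gamma libraries and at most 12243 in those of mock and mock + NR, and their part in these values was not tested.

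Tbx3 (chr5:119670669-119684724, mm10) had 53.9, 51.7, 37.7, 19.1 and 29.6 CPM in gamma libraries, all below the lowest mock library (61.7 to 136, median 94.8). It was the only member whose gamma and mock libraries did not overlap, where 0.583% of all genes lay fully lower. Its log2 fold change was -1.41 (SE 0.62, adjusted p = 0.429, edgeR). Thbd, with 312, 348, 242, 127 and 146 CPM against 181 to 698 (median 397) in mock libraries, was at -0.80 (SE 0.45), and Ramp2, with 271, 272, 163, 118 and 95.3 CPM, at -0.87 (SE 0.50). Both overlapped the mock libraries.

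**Figure D3:**
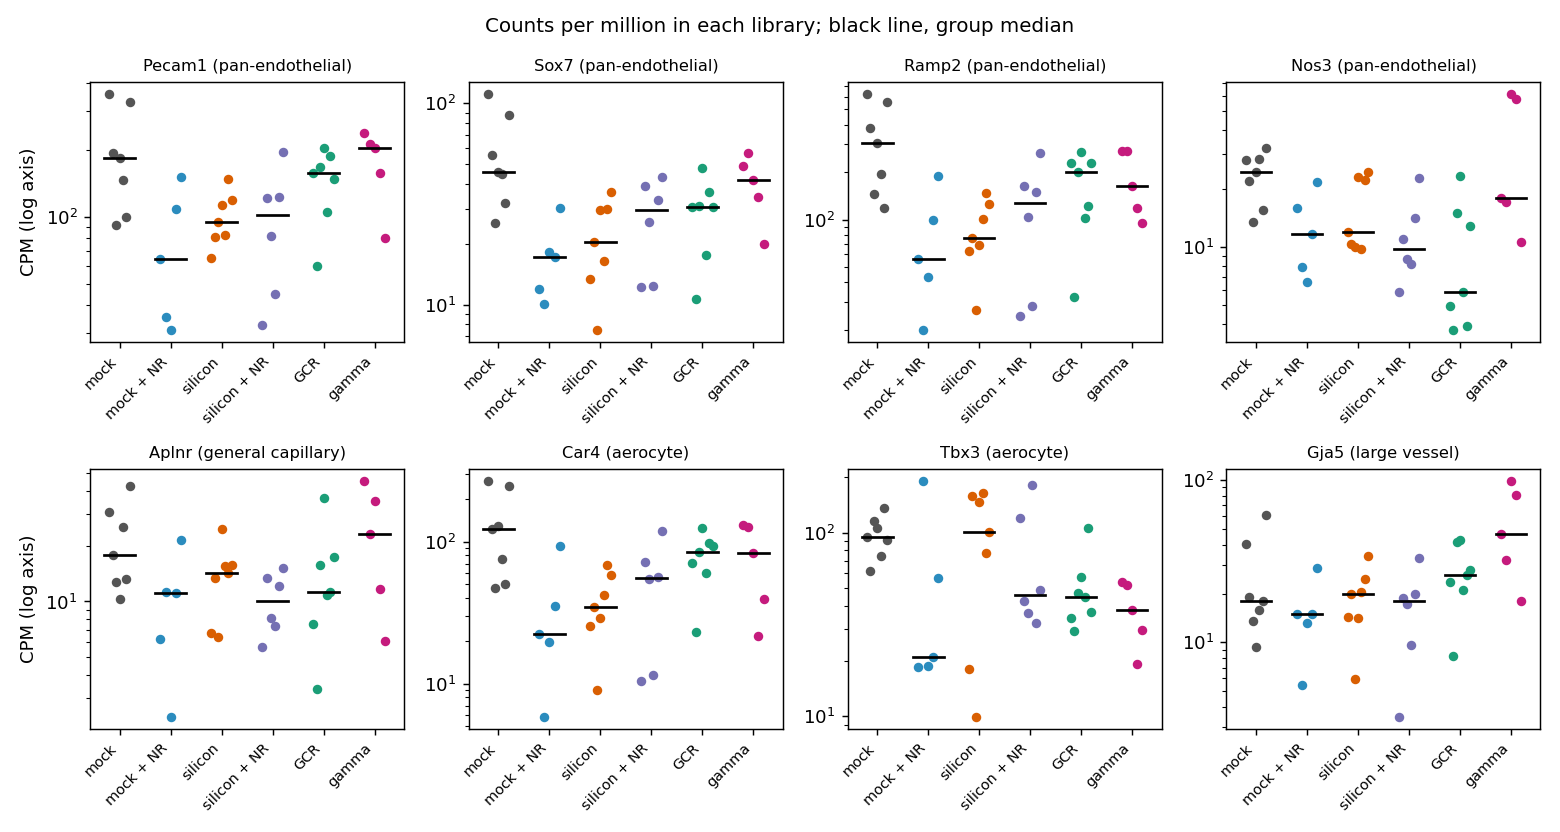
CPM (log axis) of 8 genes in each library of the 6 groups, with the group median as a black line. Pecam1, Sox7, Ramp2 and Car4 are lowest in mock + NR and silicon + NR or silicon libraries and overlap mock in all groups; Nos3 has 4 GCR libraries at 3.73 to 5.85 CPM and 2 gamma libraries at 57.9 and 61.4; Tbx3 splits into high and low libraries within mock + NR, silicon and silicon + NR.

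A difference between sexes in the response to radiation was not detected for any member. Terms for radiation by sex gave 0 of 34 genes called for silicon (0% of all genes), GCR (0%) or gamma (0.0236%) by edgeR. The members with an unadjusted p under 0.05 were 0 for silicon (4.35% of all genes), 0 for GCR (2.07%) and 2 for gamma (2.41%). Each term uses the 2 mock libraries labelled female, replicates 6 and 7, which held 0.211% and 0.720% of their counts in the 34 genes. For Pecam1 the SE of the term was 0.63 on the log2 scale in silicon and in GCR. Sizeable differences between the sexes could thus be missed. The gamma term also rests on 2 gamma libraries labelled female, of which replicate 5 goes against its label, so it holds 1 whose sex genes fit.

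To see which genes left the common level of a library, each gene's centred log2 CPM was set against the median of the 22 pan-endothelial genes in the same library. This lowered the standard deviation over the 37 libraries for 32 of 34 genes, with a median of 0.92 before and 0.46 after. The remaining spread was smallest for Pecam1 (0.86 to 0.27), Sox17 (0.78 to 0.29), Gpihbp1 (1.02 to 0.31) and Esam, a junctional adhesion molecule (1.01 to 0.32). By subset the median standard deviation after subtraction was 0.44 for pan-endothelial, 0.50 for general capillary, 0.45 for aerocyte and 0.52 for large vessel genes. The pan-endothelial genes set the level that was subtracted, so their value is not independent of it.

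General capillary and aerocyte genes stayed close to the pan-endothelial level in most libraries. The median of the 4 general capillary genes minus that of the pan-endothelial genes ran from -0.41 to 0.14 in mock, from -0.11 to 0.11 in silicon and from -0.46 to 0.07 in mock + NR libraries. In GCR libraries it ran from -0.18 to 0.74 and was highest in replicate 2, a high-Rn45s library. The aerocyte difference ran from -0.43 to 0.12 in mock libraries. Its ranges were wider in silicon (-0.75 to 0.31), silicon + NR (-0.58 to 0.40) and mock + NR libraries (-0.50 to 0.40). It was below 0 in all 5 gamma libraries (-0.77 to -0.05) and in 6 of 7 GCR libraries (-0.41 to 0.30), while 5 of 7 mock libraries lay above 0. Tbx3, 1 of the 4 genes, ran from -1.28 to -0.53 in gamma libraries and from 0.09 to 1.41 in muscle-rich mock libraries. Ranges of the others reached both sides of 0, though Apln in gamma and Ednrb in GCR libraries rose only just above it. In gamma libraries Car4 ran from -0.99 to 0.44, Ednrb from -0.47 to 0.96 and Apln from -0.58 to 0.0048. In GCR libraries they ran from -0.19 to 0.49, -0.69 to 0.05 and -0.28 to 0.53. With 4 genes a subset these are descriptions of those genes and were not tested.

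Tbx3 was the gene least tied to the others. Its standard deviation rose from 1.08 to 1.29 on subtraction. In the 13 muscle-rich libraries it ran from 56.7 to 191 CPM (median 120), and in the other 24 from 9.93 to 105 (median 37.3). Relative to the pan-endothelial level it reached 3.49 in mock + NR replicate 2 and 3.08 in silicon + NR replicate 4, both muscle-rich, and was between -1.28 and 0.30 in the 24 others. Without the muscle-rich libraries Tbx3 passed the test in silicon against mock, with a log2 fold change of -2.50, where with all libraries it was at 0.01. That fit keeps only silicon replicates 1 and 3, at 18.1 and 9.93 CPM, and replicate 3 is lymphoid-rich. In mock mice alone the 4 muscle-rich libraries had 74.9 to 136 CPM and the other 3 had 61.7 to 94.8.

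Fli1 (chr9:32422204-32542861, mm10), an ETS factor also used by blood cells, was the only other gene whose spread grew (0.66 to 0.69). It stood 2.82 above the pan-endothelial level in silicon replicate 3 and 1.18 in mock + NR replicate 4, both lymphoid-rich. S1pr1, the sphingosine-phosphate receptor of endothelium and lymphocytes, stood 2.004 above it in silicon replicate 3. Summed CPM of 10 T cell genes reached 1163 in silicon and 631 in mock + NR libraries, with group medians of 71.2 and 37.6, and no listed T cell gene was at 0 throughout a group. Without the lymphoid-rich libraries the log2 fold change of Fli1 in silicon against mock went from 0.08 to -0.40 and that of S1pr1 from -0.74 to -1.12. Neither passed the test with or without these libraries.

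Nos3 hardly gained from the subtraction (0.92 to 0.88). It stood 2.35 below the pan-endothelial level in GCR replicate 6, 1.93 below in replicate 1 and 1.23 below in replicate 5, and was below 0 in all 7 GCR libraries. It stood 2.28 and 1.57 above in gamma replicates 4 and 3, where Gja5 stood 2.19 and 1.73 above and Emcn 2.08 and 0.83 above. In GCR replicate 2, by contrast, Tal1 stood 1.57, Cd93 1.58, Edn1 1.57 and Plvap 1.501 above that level, and Icam2 2.05 below. GCR replicate 1, with 48066 CPM of Rn45s, is no high-Rn45s library, but it had the fewest genes detected of all 37 (16168), followed by GCR replicates 6, 2 and 5. The part of Rn45s and of genes detected in the low Nos3 values was not tested.

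**Figure D4:**
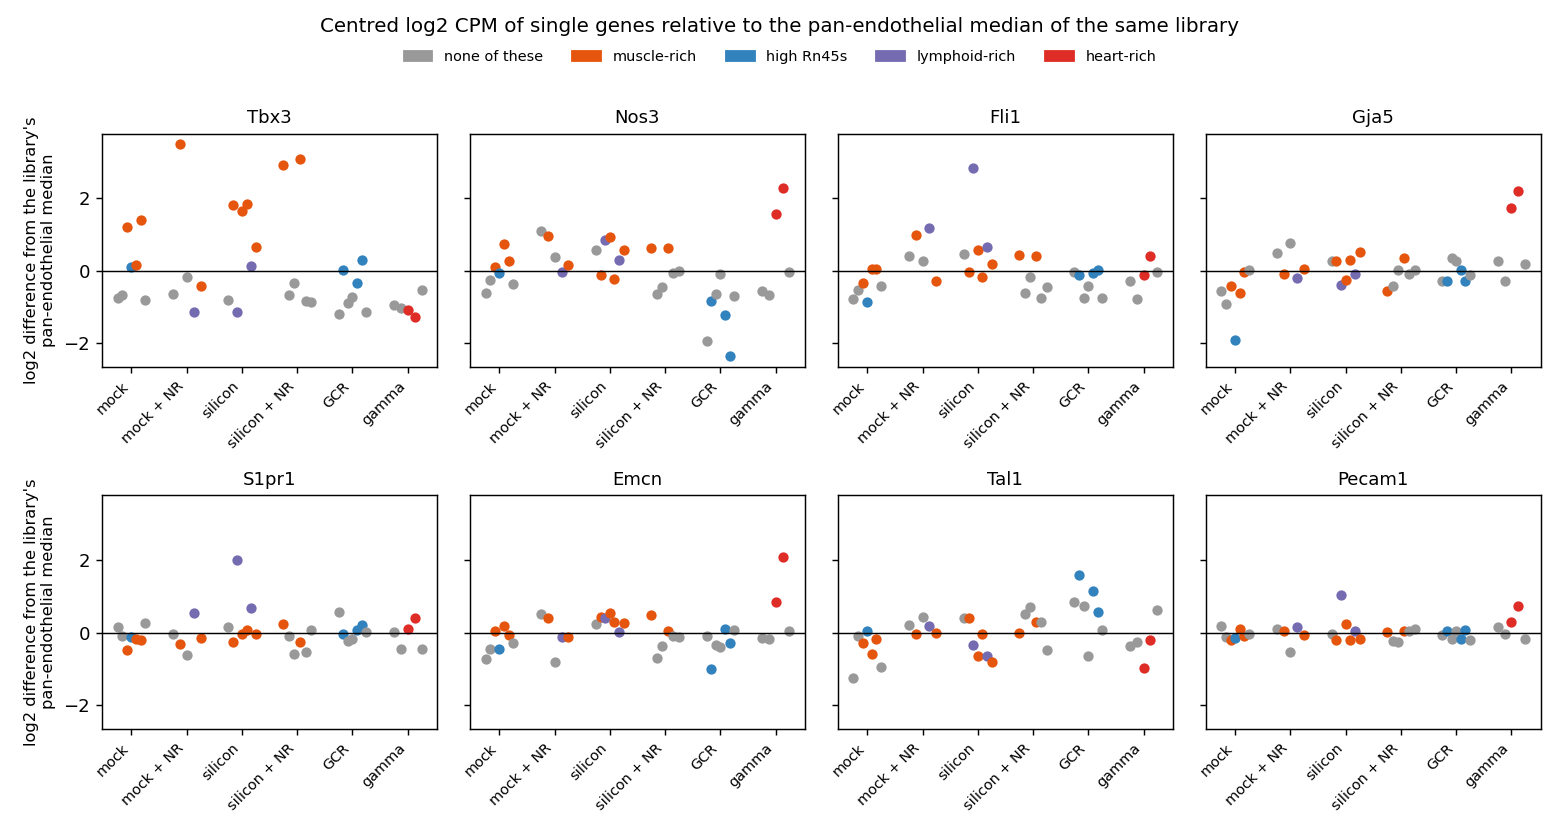
Centred log2 CPM of 8 genes minus the pan-endothelial median of the same library, by group, with points coloured by kind of library (silicon replicate 6, both muscle-rich and lymphoid-rich, is drawn as lymphoid-rich, and mock replicate 4, both muscle-rich and high-Rn45s, as high-Rn45s). Tbx3 is above 0 in nearly all muscle-rich libraries and Nos3 is below 0 in all 7 GCR libraries. Fli1 and S1pr1 peak in silicon replicate 3, and Gja5, Nos3 and Emcn peak in the heart-rich gamma replicates 3 and 4. Pecam1 has the smallest spread of the 8, and is highest in silicon replicate 3 (1.03) and gamma replicate 4 (0.73).

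Another 38 endothelial genes outside the 34, taken as a separate list, had medians close to those of the members. In silicon against mock their median log2 fold change was -1.19, with 35 of 38 below 0. At an unadjusted p under 0.05, 28 of 38 were lower, against 7.46% of all genes. The 3 of smallest p were Tmem100, a target of BMP signalling (-2.01, SE 0.44), Tbx2, a T-box factor (-1.64, SE 0.36), and Rasip1, a regulator of lumen formation (-1.22, SE 0.29), all with an adjusted p of 0.0897 by edgeR. In mock + NR against mock the median was -1.25, with 28 of 38 lower at an unadjusted p under 0.05, against 7.71% of all genes. The 3 of smallest p were Tmem100 (-2.08, SE 0.48), Adgrl4 (-1.84, SE 0.47) and the angiopoietin receptor Tek (-1.57, SE 0.40).

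In GCR against mock the median of the 38 was -0.24. The non-receptor kinase Bmx rose (0.94, SE 0.30, adjusted p = 0.0323, edgeR) and was the only 1 of the 38 called, a smaller share than the 8.03% of all genes called higher. In gamma against mock the median was -0.25 and 0 were called by edgeR, with 1 lower at an unadjusted p under 0.05, against 5.17% of all genes. Of the cells that wrap capillaries, 11 pericyte genes had medians of -0.69 in silicon, -0.55 in mock + NR, -0.79 in GCR and -0.69 in gamma against mock, and 2 of 11 fell in GCR, where 8.52% of all genes did. For 6 lymphatic endothelial genes the medians were -0.30, -0.57, -0.11 and -0.17. In silicon and mock + NR both lists had medians nearer 0 than the blood endothelial genes, a difference that was not tested.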

How the data were processed

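RNA of 37 mouse lungs was extracted with Trizol, made into cDNA with SMART-seq v4 and into libraries with Nextera XT, per the labels' protocols. The submitters' processing notes list STAR 2.5.2, HTSeq 0.13.5, Trimmomatic 0.36, FastQC 0.11.4 and MultiQC 1.12, with mm10; their settings, annotation and use of strand are not stated there. Values in the deposited table are raw read counts, 1 row per symbol, which the authors left unscaled. Reads carry no molecular identifiers.

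CPM were computed from these counts and library totals. edgeR 4.0.16 (R 4.3.3) tested 16977 genes after filterByExpr, with TMM scaling, the 6 groups and sex, by the quasi-likelihood test with Benjamini-Hochberg adjustment over all genes; a gene was called where the adjusted p was below 0.05. Each standard error was derived from the F statistic and the fold change. The fit was tested on simulated counts with 200 genes changed in silicon. It recovered 46% of 2-fold and 81.5% of 4-fold changes, with 4 and 9 false calls. Genes were drawn independently there, without the spread shared by genes of a library. Positions are from GENCODE M21 (mm10), CPM per kb uses its merged exons, and promoters are RefSeq's. Replicate numbers, given in accession order, only name mice, and no 2 libraries of a group agreed within sampling noise. The members and lists were chosen with earlier results of these data known. Values per library or group ranges are given for members with an adjusted p under 0.05 in a comparison of 2 groups. Where none passed, the 4 of smallest p are given. In the comparisons of silicon + NR only the first of these has CPM, and the rest have fold changes alone. A few others (Car4, Pecam1, Emcn, Tal1, and Nos3 in gamma libraries) were chosen after their values were seen. Of the other endothelial genes the 3 of smallest p are named. Alternatives were DESeq2 1.42.0, limma 3.58.1 voom with quality weights, RLE size factors, no count filter, no sex term, only the groups compared and each library left out; leaving out 4 kinds of library was added after seeing the data.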

Additional observations from a re-analysis of the deposited data

Results flagged for a closer look

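Among the 204 sets of values of 1 gene in 1 group, 7 held a library that stood far from the others of its group by Dixon's criterion, which chance alone meets in about 1 of 20 sets. Tbx3 stood apart in 2 of them: mock + NR replicate 2, a muscle-rich library, had 191 CPM, where the next highest of that group had 56.7, and GCR replicate 6 had 105 CPM, the next having 57.3. GCR replicate 6, a high-Rn45s library with the fewest counts of all, also had 99.8 CPM of Edn1, against 35.9 in the next. In GCR replicate 2, another high-Rn45s library, Emcn was at 6.65 CPM, where the next lowest library had 29.3. Aplnr was highest in GCR replicate 4, the most deeply sequenced library, at 36.3 CPM against 17.4 in the next. Ednrb stood at 56.8 CPM in mock + NR replicate 5, against 27.5 in the next, and that library had the highest share of endothelial counts in its group. Erg was lowest in silicon replicate 3, a lymphoid-rich library, at 6.20 CPM, against 10.1 in the next.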

How the results depend on the processing

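The median over all 34 members kept its sign under the alternatives run, except in gamma against mock, which voom put at 0.05. Small subset medians turned: voom put general capillary genes at 0.01 in GCR and 0.17 in gamma, large vessel genes at 0.17 and pan-endothelial genes at 0.06 in gamma against mock. In silicon + NR against silicon the general capillary median of 0.01 became -0.05 with no sex term and went down to -0.29 without 1 library (silicon + NR replicate 6), and without mock replicate 1 that of gamma against mock was 0.12. Counts of called members did not hold. For silicon against mock, where edgeR called 0, DESeq2 called 18, the fit without the muscle-rich libraries 24, and fits without 1 library from 0 to 17. For GCR against mock, where 2 were called, RLE size factors, no count filter, no sex term and only the groups compared gave 1 each, voom 0, the fits without the muscle-rich or without the high-Rn45s libraries 0 each, and fits without 1 library from 0 to 2. For mock + NR against mock, 0 became 21 with DESeq2, 15 with voom, 21 without the muscle-rich libraries and 0 to 14 without 1 library. For silicon + NR against silicon voom called 2. For the interaction, 0 became 6 with DESeq2, 27 without the muscle-rich libraries and 0 to 1 without 1 library. The causes were not tested.

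Without the muscle-rich libraries, silicon against mock had a median log2 fold change of -2.31 over all members, -2.27 over pan-endothelial, -2.33 over general capillary, -2.41 over aerocyte and -2.50 over large vessel genes, and Tbx3 turned from 0.01 to -2.50. The aerocyte median of mock + NR against mock became -1.94. For silicon + NR against silicon the medians became 1.31, 1.29, 1.13, 1.40 and 1.64 in the same order, and for the interaction 3.14, 2.91, 3.30, 3.33 and 3.38. With voom the aerocyte median of gamma against mock was -0.0089. These fits rest on as few as 2 silicon mice (replicates 1 and 3, the latter lymphoid-rich) and 3 mock mice, and voom weights libraries unequally. Leaving out a library leaves at least 4 mice in a group. No paired analysis was possible because the labels give no replicate numbers that pair mice across groups.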
